A study of Mus musculus with 22 samples.

Results

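The genes described here are 39 genes of chromosomal DNA replication and of the supply of its nucleotides. They were chosen by name, from the subunits and enzymes of the replication fork and of deoxynucleotide synthesis, and each was represented by the probe of highest mean among those that the platform annotation gives that symbol alone. All 39 were measured, out of 19752 genes on the arrays. The RNA came from MECs, the medullary epithelial cells of the thymus, sorted from mice as negative for DAPI and CD45, low in Ly51 and high in MHC class II, and was hybridised to Affymetrix ST1.0 gene arrays. The mice were C57Bl/6, either wild type (WT, Aire+/+) or Aire knockout (KO, Aire-/-, without the transcriptional regulator that lets MECs express genes of other tissues), and had received DMSO (the vehicle), Etopo, Topo or both (EtopoTopo). The short forms, which the labels do not expand, are in common use for etoposide and topotecan, which trap DNA topoisomerases of type II and type I on DNA. Dose and timing of the drugs are not used here. There were 3 arrays per group and 22 in all, except for KO Etopo and KO EtopoTopo with 2 arrays each. All 5 EtopoTopo arrays, WT DMSO array 3 and WT Etopo array 3 were from mice 4 weeks old, and the other arrays were from mice 6 weeks old. Nothing in the labels says that arrays were separate mice, so the p-values measure the spread between arrays, which may in part be technical.

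Replication starts when the origin recognition complex, with Cdc6 and Cdt1, loads the MCM helicase onto DNA, and Cdc45 and the GINS complex then activate it. Polymerase alpha with its primase begins each new strand, polymerases delta and epsilon extend it with the sliding clamp Pcna and its loader, and the fork consumes deoxynucleotides that ribonucleotide reductase and thymidylate synthase provide. Many of these genes are expressed around S phase under E2F transcription factors, and in the thymic medulla dividing epithelial cells are found mainly among the immature MECs. In bulk RNA, fewer dividing cells and less RNA per cell cannot be told apart.

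The promoters of the members are shown first because a motif of the S-phase regulators was frequent in them. RefSeq promoter sequences (GRCm38.p6), taken as the 250 bases before each gene's start, were held for 33 of the 39 members. The E2F core was searched on both strands as the words TTCCCGC and then TTCGCGC, as well as TTGCCGC and lastly TTGGCGC. Such a word was present in 16 of these 33 members, or 48.5%, and in 9.01% of the 27025 genes of the same table. The box CCAAT, searched on both strands, was present in 60.6% of the members and in 37.5% of all genes. The word TTTGAA, the core of an element found at genes of mitosis, was present in 12.1% of the members and in 18.3% of all genes. The promoters of Mcm6, Rrm2 and Uhrf1 are given 5′ to 3′ on the gene's strand. They were chosen because these 3 members, with Prim2, were called down in all 3 drug comparisons that had such calls. Those in the knockout share their DMSO arrays, so their calls are not independent. Capitals mark the E2F core words. Mcm6 lies at chr1:128359706-128359955 (minus strand), Rrm2 at chr12:24708004-24708253 (plus strand) and Uhrf1 at chr17:56303087-56303336 (plus strand).
Mcm6: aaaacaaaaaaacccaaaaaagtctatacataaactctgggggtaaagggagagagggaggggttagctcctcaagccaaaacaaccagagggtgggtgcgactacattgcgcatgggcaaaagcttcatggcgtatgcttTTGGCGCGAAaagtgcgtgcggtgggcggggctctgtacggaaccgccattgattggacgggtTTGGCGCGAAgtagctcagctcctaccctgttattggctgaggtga
Rrm2: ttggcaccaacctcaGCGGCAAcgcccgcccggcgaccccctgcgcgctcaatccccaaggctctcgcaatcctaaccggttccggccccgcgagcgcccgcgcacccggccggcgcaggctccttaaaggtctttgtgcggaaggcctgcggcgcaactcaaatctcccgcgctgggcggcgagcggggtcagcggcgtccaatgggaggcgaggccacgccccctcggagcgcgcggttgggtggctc
Uhrf1: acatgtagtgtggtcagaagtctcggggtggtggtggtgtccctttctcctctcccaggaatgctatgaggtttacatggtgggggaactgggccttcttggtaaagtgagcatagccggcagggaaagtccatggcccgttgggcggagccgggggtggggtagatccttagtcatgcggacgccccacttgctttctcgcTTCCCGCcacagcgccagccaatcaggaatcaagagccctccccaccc
The Mcm6 promoter held 4 matches in 2 overlapping pairs, with first bases 109, 106, 46 and 43 bases before the start. The Rrm2 promoter held 1 match, 235 bases before the start, and the Uhrf1 promoter held 1, 48 bases before the start. Among the members called down in at least 1 drug comparison, 9 of the 17 with a sequence held a core word, against 7 of the 16 that were not called down in any. A match describes these letters only and does not show binding.

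Several properties of the arrays bear on the results. Replicate arrays correlated with r between 0.96 and 1.00 over all genes. Of the MEC markers, Aire, Epcam, the keratins and the MHC class II genes were among the brighter genes on the arrays, with Aire at the percentile 99.4 of the mean log2 intensity. The Aire probe was no lower in the knockout (12.91 ± 0.04 under DMSO, SD, n = 3) than in the wild type (12.31 ± 0.11, SD, n = 3), and whether it lies in the deleted part was not determined, so it does not check the genotype labels. CD45-positive thymocytes should be absent from the gate, but the mean log2 intensity of 18 thymocyte markers was 8.13 on WT DMSO array 1 and 8.58 on KO DMSO array 1, against 6.91 to 7.50 on the other 20 arrays. The spread of intensities between the 10th and 90th percentile was narrowest on KO EtopoTopo array 1, at 3.60 log2 units, against 4.07 to 4.71 elsewhere. WT EtopoTopo arrays 1 and 2 carry both drugs in the title but Etopo alone as treatment. WT DMSO array 1, WT Etopo array 2 and WT Topo array 2 are labelled male, but Xist, which is transcribed from the inactive X, was high on all 22 arrays.

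The 39 members as a group were lower after the drugs in the knockout, and in the wild type they were lower with both drugs. The mean log2 intensity over the members was 8.34, 8.19 and 8.21 on the WT DMSO arrays. It was 8.22, 8.17 and 8.26 with Etopo, 7.88, 8.06 and 8.26 with Topo, and 7.99, 7.93 and 7.96 with EtopoTopo. The wild-type Etopo arrays thus overlapped those of DMSO, while all 3 EtopoTopo arrays lay below them. In the knockout the mean was 8.44, 8.25 and 8.49 under DMSO, 7.97 and 8.03 with Etopo, 7.89, 7.97 and 8.03 with Topo, and 7.93 and 7.96 with EtopoTopo. All 7 drug-treated knockout arrays lay below all 3 knockout DMSO arrays. Among the DMSO arrays, the mean of the thymocyte markers was 8.13, 7.39 and 7.29 in the wild type, where array 1 was the highest for the members too. It was 8.58, 7.41 and 7.17 in the knockout, where array 3, the lowest for the thymocyte markers, was the highest for the members and array 1 came next.

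**Figure D1:**
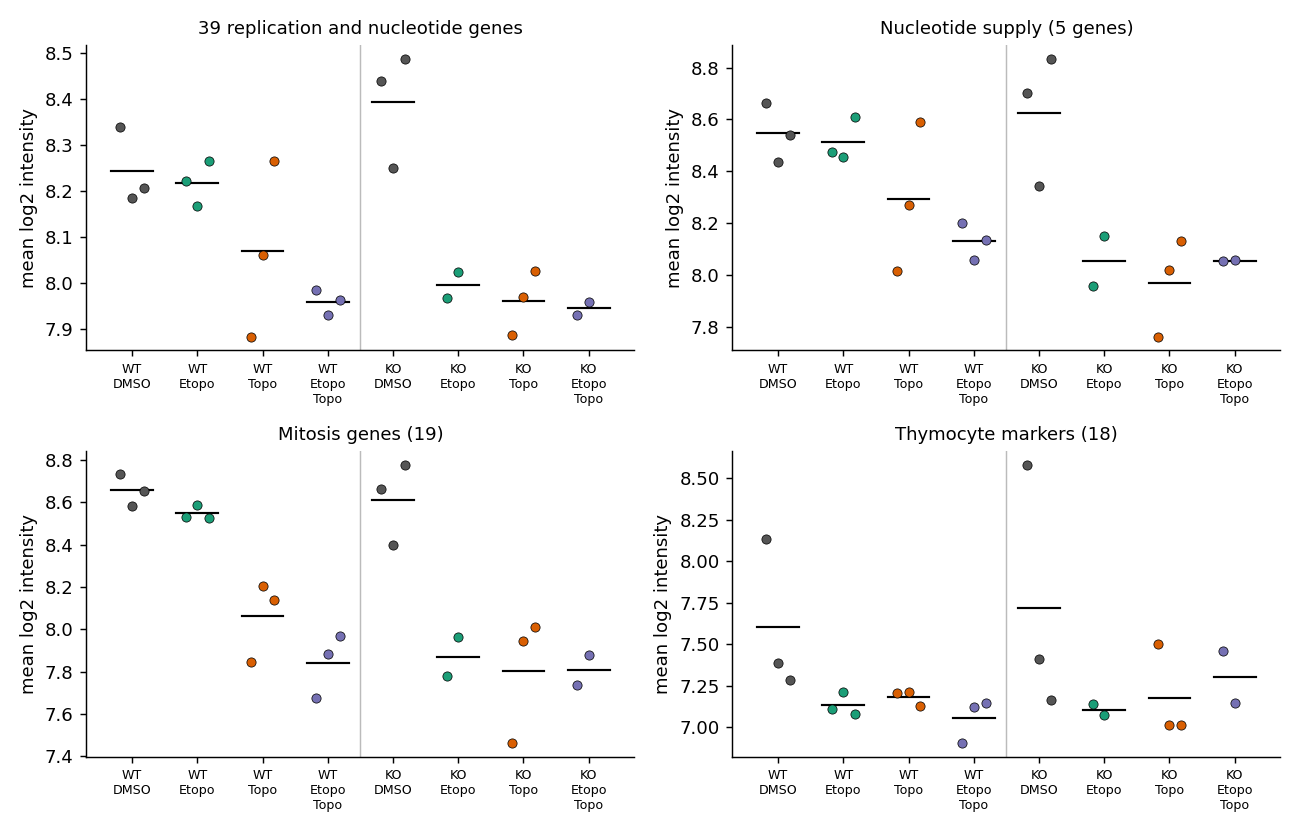
Mean log2 intensity (vertical axis) per array over the 39 members, over the 5 nucleotide supply members, over 19 mitosis genes and over 18 thymocyte markers. Each point is an array, bars are group means, groups are on the horizontal axis and the vertical axes do not start at 0; the 7 drug-treated knockout arrays lie between 7.89 and 8.03 for the members, below the knockout DMSO arrays at 8.25 to 8.49.

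**Figure D2:**
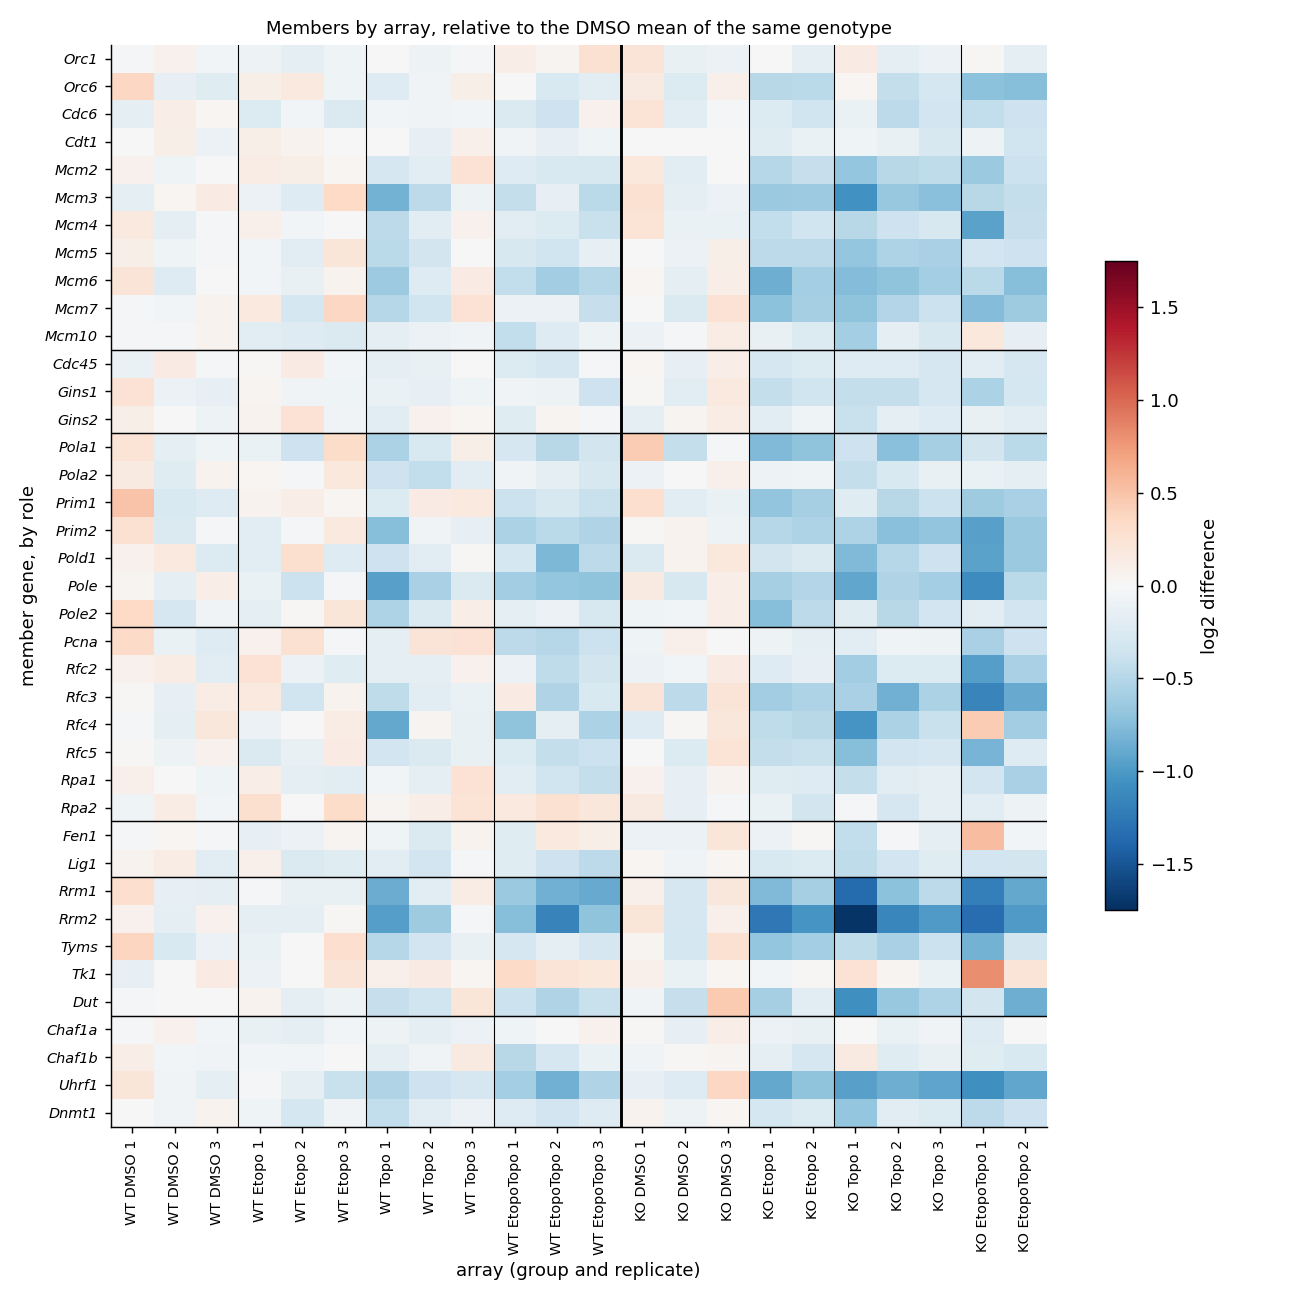
Log2 difference of each member (rows, by role) on each of the 22 arrays (columns) from the mean of the DMSO arrays of the same genotype. Blue is lower and red is higher; blue fills most of the rows of all 7 drug-treated knockout arrays, while the 3 WT Etopo arrays are pale.

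Without drug, the comparison of knockout with wild type asks whether loss of Aire changed these genes. Pola2, Orc6 and Rpa2 were higher in the knockout, and no member was called lower. A member was called when limma gave a Benjamini-Hochberg adjusted p under 0.05 over all genes. This rule called 3 members up and 0 down, and over all genes it called 7.4% up and 12% down. The share of members called up was thus near that of all genes. The median change of the members was 0.15 on the log2 scale, against -0.01 for all genes, and 33 of 39 members lay above 0. Without overlap between the groups, 6 members were higher and 3 lower in the knockout, against 13.6% and 18.2% of all genes. Pola2, the regulatory B subunit of polymerase alpha, had log2 intensities of 9.46, 9.57 and 9.65 in the knockout and of 9.17, 8.81 and 9.08 in the wild type. The groups did not overlap, and the difference was 0.54 ± 0.12 (SE), a 1.46-fold rise (limma adjusted p = 0.00194). Orc6, a subunit of the origin recognition complex, rose by 0.50 ± 0.15 (limma adjusted p = 0.026), although WT DMSO array 1 at 8.27 lay above KO DMSO array 2 at 8.17. Rpa2, a subunit of the protein that coats single-stranded DNA, read 8.29, 7.99 and 8.11 against 7.69, 7.88 and 7.70 and rose by 0.37 ± 0.12 (limma adjusted p = 0.0312). The other 36 members were not called and lay between -0.34 (Rfc5) and 0.42 (Rfc4), so that some changes exceeded that of Rpa2 with a larger error. Among them the largest change of its role was 0.42 ± 0.24 for the clamp loader subunit Rfc4, 0.28 ± 0.15 for Uhrf1, which brings the maintenance methyltransferase Dnmt1 to newly replicated DNA, and 0.26 ± 0.20 for Dut, which hydrolyses dUTP and so keeps uracil out of DNA. It was 0.18 ± 0.11 for Cdc45, which activates the helicase, and 0.13 ± 0.15 for Fen1, the flap endonuclease (SE). Markers of other cells differed as well: 3 of 7 macrophage and dendritic cell markers were called lower in the knockout, with a median of -0.42 and Adgre1 at -1.61, as were 2 of 6 markers of stroma and endothelium (median -0.24) and Cd79a among 3 B cell markers (-1.02). The part of these markers in the result was not tested. Of the 18 thymocyte markers 0 were called by limma and 0 had an unadjusted p under 0.05, with a median of 0.11, and without both arrays high in them 3 members were called and the members' median was 0.21. Leaving out WT DMSO array 3, KO DMSO array 1 or KO DMSO array 3 left 1 member called in each case. Pola2 was called under all 16 alternatives tried.

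With Etopo in the wild type no member passed the test. Limma called 0 of 39 members and gave 0 an unadjusted p under 0.05, and over all genes 0.00506% were called up and 0% down. The groups did not overlap for 4 members lower and 0 higher with Etopo, against 7.31% and 4.32% of all genes. The median change was -0.03, against -0.04 for all genes, with 23 members below 0, and it turned positive (0.01) without WT DMSO array 1 and (0.00) without WT Etopo array 2. Rrm2, the small subunit of ribonucleotide reductase, which makes deoxynucleotides from ribonucleotides, read 8.85, 8.88 and 9.05 with Etopo and 9.10, 8.88 and 9.10 with DMSO. Uhrf1 read 7.91, 7.76 and 7.54 against 8.14, 7.87 and 7.77. Both sets of arrays overlapped. The largest change in either direction was that of Mcm10, a factor of helicase activation, at -0.22 ± 0.12, with a 95% interval of -0.48 to 0.03. In the other roles the largest were 0.20 ± 0.12 for Rpa2, -0.17 ± 0.18 for Pole, the catalytic subunit of the leading-strand polymerase epsilon, -0.13 ± 0.12 for Lig1, which seals Okazaki fragments, and 0.08 ± 0.12 for the GINS subunit Gins2 (SE).

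Topo in the wild type also gave no called member, where limma called 0.83% of all genes up and 1.38% down. With Topo 6 members lay lower without overlap and 0 higher, against 11.4% and 8.56% of all genes. Limma gave 6 members and 2275 of all 19752 genes an unadjusted p under 0.05. The median change was -0.18, against 0.00 for all genes, and 34 of 39 members lay below 0. The 3 Topo arrays spread widely. Rrm1, the large subunit of ribonucleotide reductase, read 8.57, 9.23 and 9.57, and Rrm2 read 8.06, 8.40 and 8.99. Array 1 was the lowest and array 3 the highest for both, and array 3 lay within the range of DMSO. Pole read 6.95, 7.33 and 7.65 with Topo and 7.95, 7.74 and 8.01 with DMSO. These arrays did not overlap, and the change was -0.59 ± 0.18 (SE, limma adjusted p = 0.0941). Uhrf1 read 7.40, 7.56 and 7.64, below all DMSO arrays, with a change of -0.40 ± 0.15 (limma adjusted p = 0.226). The largest changes of the other roles were -0.46 ± 0.18 for Mcm3, -0.33 ± 0.24 for Rfc4, -0.18 ± 0.12 for Lig1 and -0.11 ± 0.12 for Gins1 (SE), none of them called. Weighting the arrays by their quality called 5 members, but the share of all genes called under these weights is not given here.

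With both drugs in the wild type 7 members were called lower, of ribonucleotide reductase, polymerases, clamp, helicase and maintenance methylation. The treated mice were all 4 weeks old, as was only array 3 of DMSO. Limma called 7 down and 0 up, against 7.28% and 3.6% of all genes. The median was -0.27, against -0.01 for all genes, and 21 members lay lower without overlap and 2 higher, against 18.5% and 12% of all genes. This comparison shares the DMSO arrays with the other wild-type drug comparisons. Rrm2 read 8.28, 7.86 and 8.33 with EtopoTopo and 9.10, 8.88 and 9.10 with DMSO. All treated arrays were lower, and Rrm2 fell by 0.87 on the log2 scale (SE 0.21), 1.83-fold, with a limma adjusted p of 0.00954. Rrm1 read 8.78, 8.60 and 8.55 against 9.73, 9.29 and 9.28 and fell 1.73-fold (limma adjusted p = 0.0241). Uhrf1 read 7.33, 7.09 and 7.41, below every DMSO array, and fell 1.57-fold (limma adjusted p = 0.00678).

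Among the fork proteins, Pole read 7.29, 7.22 and 7.19 with EtopoTopo and fell 1.58-fold (limma adjusted p = 0.0185). Prim2, the large primase subunit, read 7.99, 8.07 and 8.02 against 8.81, 8.30 and 8.53, and Mcm6, a helicase subunit, read 8.48, 8.31 and 8.43 against 9.14, 8.70 and 8.91. Both fell without overlap, by 0.52 and 0.51. Pcna, the sliding clamp, read 10.74, 10.70 and 10.83 against 11.53, 11.09 and 10.98. Pcna fell by 0.44, while Rfc4 had the larger but uncalled change of -0.47 ± 0.24 (SE). Pcna was the only one of these 7 whose Etopo and Topo arrays had averaged above DMSO, by 0.11 and 0.10. In the other roles the largest changes were those of Cdc45 at -0.19 ± 0.11 and of Lig1 at -0.35 ± 0.12 (SE), neither of them called. Tk1 and Rpa2 stood apart, with all 3 EtopoTopo arrays above DMSO, but their changes of 0.25 ± 0.14 and 0.21 ± 0.12 were not called.

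The 7 calls depended on few arrays. They became 2 without WT DMSO array 1, the array high in thymocyte markers, 1 without WT EtopoTopo array 2 and 2 without WT EtopoTopo array 3. They became 0 without the arrays of conflicting treatment labels, without those labelled male, or with age in the fit, and the median change lay between -0.20 and -0.32 under every alternative. Markers of other cells moved too: the median change was -0.52 for 18 thymocyte markers, 2 of them called down, and -0.42 for 7 macrophage and dendritic cell markers, 3 of them called down. The part of the macrophage markers in the result was not tested. At 4 weeks alone, WT DMSO array 3 had a member mean of 8.21 and an Rrm2 of 9.10, both above all 3 EtopoTopo arrays of that age, which rests on 1 DMSO array and is no test of age.

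**Figure D3:**
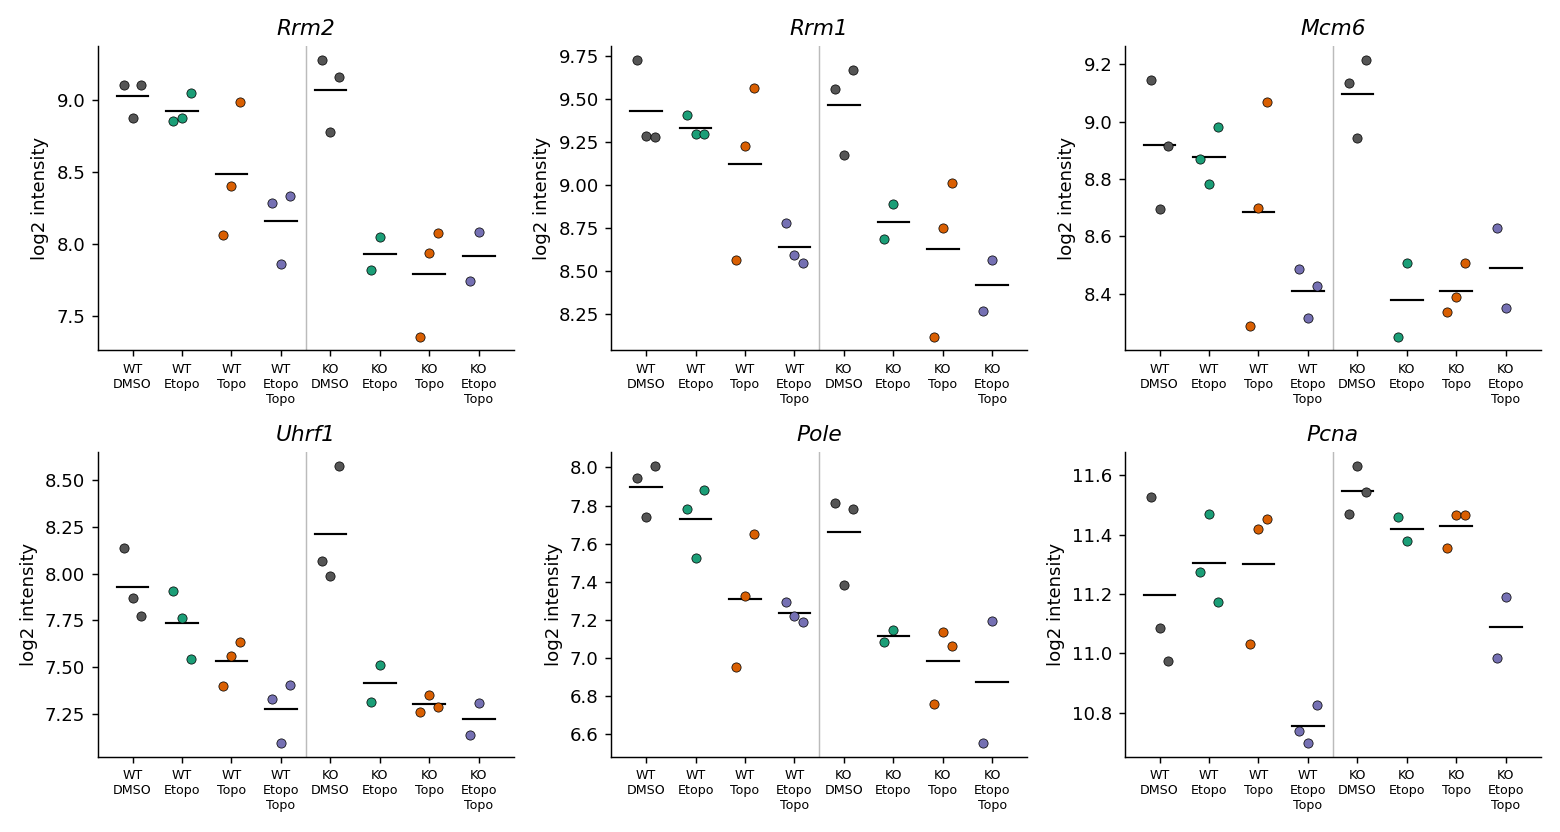
Log2 intensity (vertical axis, not from 0) of Rrm2, Rrm1, Mcm6, Uhrf1, Pole and Pcna on each array, with group means as bars and groups on the horizontal axis. All 7 drug-treated knockout arrays lie below the 3 knockout DMSO arrays for Rrm2 (at most 8.09 against at least 8.78), while the wild-type Etopo arrays overlap DMSO.

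Etopo in the knockout lowered no single member past the threshold, yet every one of the 39 changes was below 0. The count called by limma was 0, and it was 0 over all 19752 genes (0% called). At an unadjusted p under 0.05 there were 20 members, against 707 of all genes. The median change was -0.39, against 0.02 for all genes, and the groups did not overlap for 30 members lower with Etopo and 0 higher, against 12.8% and 16.9% of all genes. Rrm2 read 7.82 and 8.05 with Etopo and 9.28, 8.78 and 9.16 with DMSO. Its change was -1.14 ± 0.23 (SE), 2.21-fold (limma adjusted p = 0.209). Uhrf1 read 7.31 and 7.51 against 8.07, 7.99 and 8.58, with a change of -0.80 ± 0.17 (limma adjusted p = 0.209). Mcm6 read 8.25 and 8.50 against 9.13, 8.94 and 9.22, with a change of -0.72 ± 0.18 (limma adjusted p = 0.399).

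By role, the polymerases and primase had the median -0.55 and the nucleotide supply genes -0.63. Pola1, the catalytic subunit of polymerase alpha, read 6.97 and 7.04 with Etopo against 8.19, 7.32 and 7.71 with DMSO, a change of -0.74 ± 0.22. Its partner Pola2, at 9.47 and 9.49 against 9.46, 9.57 and 9.65, overlapped DMSO and changed by -0.08 ± 0.13. Tyms, thymidylate synthase, changed by -0.63 ± 0.19. Tk1, thymidine kinase of the salvage route, changed by -0.01 ± 0.15, and by -0.16 ± 0.18 at its other probe. The clamp loader subunit Rfc3 changed by -0.58 ± 0.21, the GINS subunit Gins1 by -0.38 ± 0.14 and Lig1 by -0.25 ± 0.14. All these arrays came from mice 6 weeks old. The thymocyte markers had a median change of -0.59, with 0 of 18 called by limma and 6 at an unadjusted p under 0.05. Without both arrays high in those markers the members' median was -0.38 and the count 0. Weighting arrays by quality gave 11 called members, but the share of all genes called under these weights is not given here.

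Topo in the knockout lowered 6 members, namely 3 MCM helicase subunits, Prim2, Rrm2 and Uhrf1. Limma called 6 down and 0 up, against 0.78% and 0.253% of all genes (1.03% in all). The groups did not overlap for 29 members lower and 0 higher, against 8.79% and 7.62% of all genes. The median was -0.37, against 0.01 for all genes, with 38 of 39 members below 0. The member above 0 was Tk1 at 0.06, and its other probe changed by -0.09. Rrm2 read 7.36, 7.94 and 8.08 and fell by 1.28 on the log2 scale (SE 0.21), 2.44-fold (limma adjusted p = 0.00894). Uhrf1 read 7.26, 7.35 and 7.29 and fell 1.88-fold (limma adjusted p = 0.00894). All Topo arrays lay below all DMSO arrays for both. Mcm3 read 6.72, 7.12 and 7.06 against 8.06, 7.62 and 7.68 and fell 1.76-fold (limma adjusted p = 0.0279). Mcm6 and Mcm5 fell 1.61-fold and 1.51-fold, and Prim2 fell 1.58-fold, again without overlap. Pole had the change -0.68 ± 0.18, Dut had -0.76 ± 0.20, Rfc4 had -0.66 ± 0.24, Gins1 had -0.37 ± 0.13 and Lig1 had -0.33 ± 0.12, none of them called.

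The 6 calls became 0 without KO DMSO array 3 and 2 without KO DMSO array 1. They became 2 without KO Topo array 1 and 3 without KO Topo array 3. With arrays weighted by quality 15 members were called, but the share of all genes called under these weights is not given here. The thymocyte markers moved the same way, with a median change of -0.60, 2 of 18 called down, and array means of 7.50, 7.01 and 7.01 with Topo against 8.58, 7.41 and 7.17 with DMSO. Without both DMSO arrays high in those markers the median change of the members was -0.37, and 2 members were called. KO Topo array 1, at 7.50, stayed in that fit. The part of these markers in the result was not tested.

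With both drugs in the knockout 20 members were called lower and 1 higher than with DMSO. The treated mice were 4 weeks old and the DMSO mice 6 weeks old, so age and treatment cannot be told apart. Limma called 11.7% of all genes down and 11.1% up in this comparison, and the groups did not overlap for 28 members lower and 1 higher, against 18.9% and 27.3% of all genes. The median was -0.45, against 0.06 for all genes. This comparison shares the DMSO arrays with the other knockout drug comparisons. Rrm2 read 7.74 and 8.09 and fell 2.23-fold (limma adjusted p = 0.00477), and Rrm1 read 8.27 and 8.56 against 9.56, 9.17 and 9.67 and fell 2.07-fold (limma adjusted p = 0.01). Rfc3 read 7.21 and 7.49 against 8.60, 7.92 and 8.59 and fell 2.02-fold (limma adjusted p = 0.00529). Uhrf1 read 7.14 and 7.31 and fell 1.99-fold (limma adjusted p = 0.00207). The treated arrays lay below DMSO for all 4.

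Among the polymerases, Prim2 and Pold1, the catalytic subunit of polymerase delta, fell 1.74-fold each and Pole fell 1.72-fold. Another loader subunit, Rfc2, fell 1.70-fold. In licensing, Orc6 read 7.69 and 7.66 against 8.56, 8.17 and 8.49 and fell 1.66-fold (limma adjusted p = 0.0101). Gins1 fell by 0.43 (SE 0.14), and Lig1 had a change of -0.33 ± 0.14 that was not called. Tk1 was the member called up, by 0.52 ± 0.16 (limma adjusted p = 0.0257), with 8.83 and 8.25 against 8.12, 7.91 and 8.06. The other Tk1 probe changed by 0.31 ± 0.18 (limma adjusted p = 0.182).

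KO EtopoTopo array 1, the array of narrowest range, stood apart within the members as well. It was the higher of the pair for Tk1, at 8.83 against 8.25, for Rfc4, at 10.15 against 9.10, and for Fen1, at 8.11 against 7.52. It was the lower of the pair for Pole, at 6.55 against 7.19. Without it no member was called and the median was -0.37. The 21 calls became 13 without KO DMSO array 1 and 10 without KO DMSO array 3, and 0 with arrays weighted by quality. Of the 15 MEC markers 6 were called down in this comparison, with a median of -0.37, and of the 18 thymocyte markers 1 was, with a median of -0.48 (16 members were called without both arrays high in these). The part of the MEC markers in the result was not tested. Both EtopoTopo arrays were from mice 4 weeks old and all knockout DMSO arrays from mice 6 weeks old, so age and treatment cannot be told apart within the knockout, and no member was called with age in the fit.

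**Figure D4:**
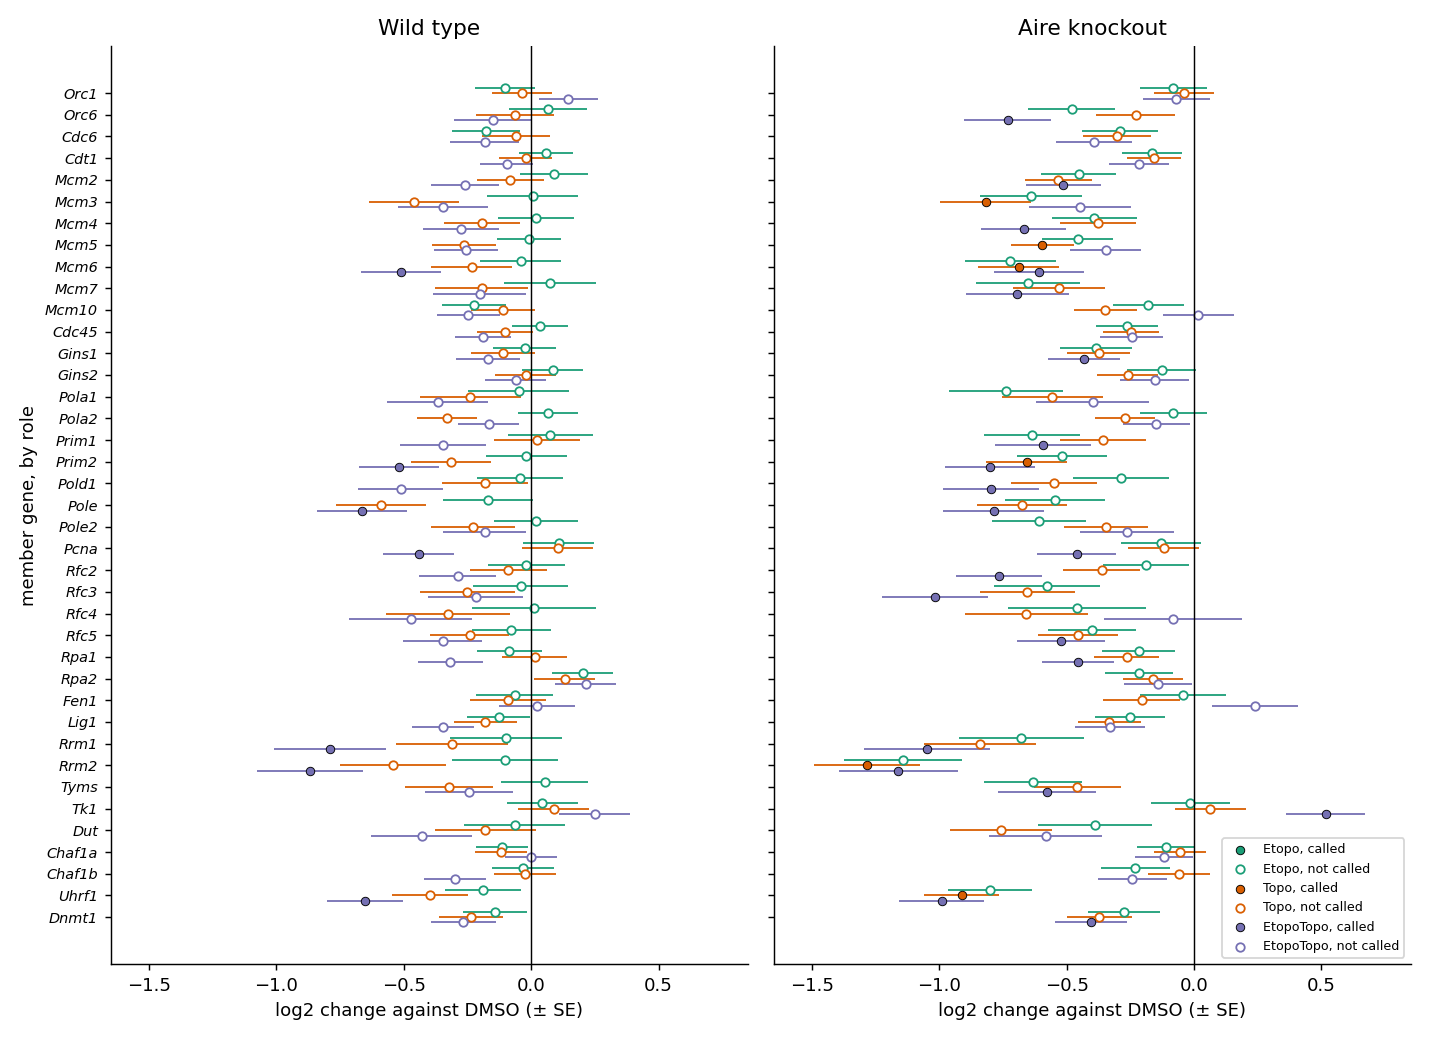
Log2 change against DMSO (horizontal axis, with SE) of each member (vertical axis, by role) for Etopo, Topo and EtopoTopo in the wild type (left) and the knockout (right). Filled points are called; with Etopo every knockout change lies below 0, from -1.14 for Rrm2 to -0.01 for Tk1, and wild-type changes lie between -0.22 and 0.20.

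The interaction asks whether a drug's effect differed between the genotypes. For Etopo the knockout effect minus the wild-type effect was below 0 for 35 of 39 members, with the median -0.36, against 0.04 for all genes. Limma called 0 members and 0% of all genes, while 14 members and 907 of all genes had an unadjusted p under 0.05. For Rrm2 the difference of effects was -1.04 ± 0.31 (SE), with a 95% interval of -1.69 to -0.39 and a limma adjusted p of 0.95. For Mcm7 it was -0.72 ± 0.27 and for Prim1, the catalytic primase subunit, -0.71 ± 0.25, with the same adjusted p. With Topo the median was -0.25, against -0.02 for all genes, and 0 members and 0.0759% of all genes were called. Limma gave 3 members and 936 of all 19752 genes an unadjusted p under 0.05. The difference for Rrm2 was -0.74 ± 0.29 and for Uhrf1 -0.51 ± 0.21. With both drugs the median was -0.14, against 0.03 for all genes, and 0 members and 2.46% of all genes were called. An unadjusted p under 0.05 in limma was given to 3 members and to 2912 of all 19752 genes, a larger share. Rfc3 had a difference of -0.80 ± 0.28. A difference of the drug effects between the genotypes was thus not established for any member. The members' median difference, knockout minus wild type, was 0.15 under DMSO and -0.05 with both drugs. The DMSO difference enters each of these interactions.

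**Figure D5:**
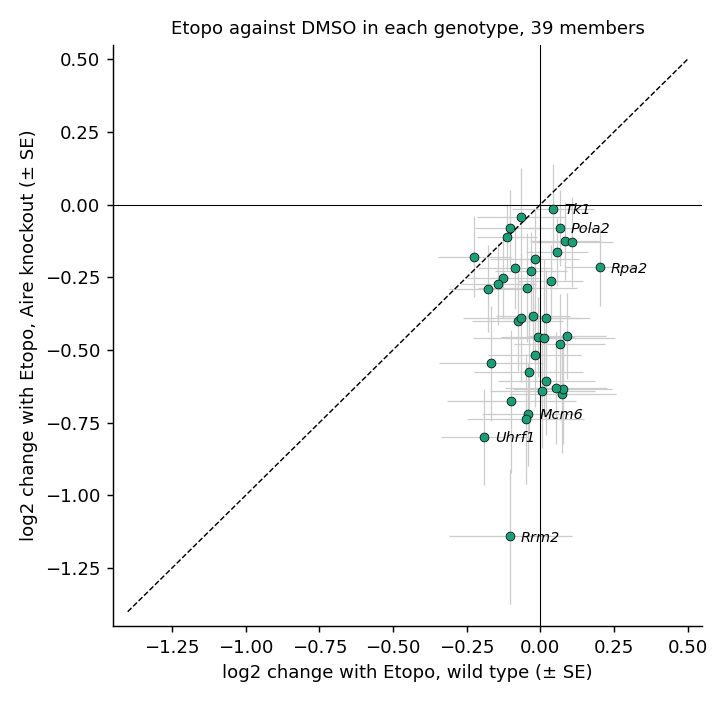
Log2 change with Etopo in the wild type (horizontal axis) and in the knockout (vertical axis), each with its SE, for the 39 members; the dashed line marks equal change. Of the members, 35 lie below the line, and Rrm2 is lowest at -1.14 in the knockout and -0.10 in the wild type.

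The remaining comparisons set drugs and genotypes against each other directly. Topo against Etopo in the wild type gave 0 called members, against 0.00506% of all genes, and a median of -0.14. Limma gave 5 members and 878 of all 19752 genes an unadjusted p under 0.05. Arrays did not overlap for 3 members lower and 1 higher with Topo, against 5.34% and 11.8% of all genes. Pola2 was lower on all Topo arrays (8.66, 8.59 and 8.82) than on all Etopo arrays (9.05, 9.00 and 9.21), by 0.39 ± 0.12 (SE), but its limma adjusted p was 0.998. EtopoTopo against Topo gave 0 called members, against 0.38% of all genes, and a median of -0.09. An unadjusted p under 0.05 in limma was given to 5 members and to 2972 of all 19752 genes, a larger share. The groups did not overlap for 3 members lower and 3 higher with both drugs, against 16.4% and 11.5% of all genes. Pcna had the largest change there, -0.55 ± 0.14 (limma adjusted p = 0.0757), with the arrays apart. Knockout against wild type with both drugs, all at 4 weeks, gave 1 called member, which was higher, where limma called 10.4% of all genes, 4.32% up and 6.12% down. The groups did not overlap for 4 members higher and 4 lower, against 14.6% and 14.9% of all genes. Pola2 read 9.44 and 9.39 against 8.96, 8.86 and 8.74 and was 1.48-fold higher (limma adjusted p = 0.00684). The median there was -0.05, and no member was called without KO EtopoTopo array 1, 2 were without WT EtopoTopo array 2 and 6 without KO EtopoTopo array 2. Pola2 was also higher in the knockout with Etopo (9.47 and 9.49 against 9.05, 9.00 and 9.21) and with Topo (9.15, 9.29 and 9.44 against 8.66, 8.59 and 8.82), without overlap. The genotypes were not compared by limma under either single drug, and the share of all genes without overlap is not given there.

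Other genes of the same pathway were called in the same comparisons. Over all genes, limma called 7.4% up in the knockout under DMSO and 7.28% down with both drugs in the wild type. In the knockout it called 0.78% down with Topo and 11.7% down with both drugs. Of 32 further replication factors, limma called 4 up in the knockout under DMSO, led by Tipin, of the fork protection complex, at 0.63 ± 0.17 (adjusted p = 0.0121), and Orc4 at 0.60 ± 0.18 (SE). With both drugs 5 fell in the wild type, among them Dbf4, the activator of the Cdc7 kinase, by 0.70, and Mcmbp, which binds MCM proteins, by 0.69. In the knockout 3 fell with Topo, namely Dbf4 by 0.77, the histone chaperone Asf1b by 0.75 and Ticrr, which helps activate the helicase, by 0.71, and 11 fell with both drugs. The medians of these further factors were 0.00, -0.10 and -0.19 with Etopo, Topo and both in the wild type, and -0.25, -0.23 and -0.30 in the knockout. Of 14 further nucleotide enzymes, limma called 4 up in the knockout under DMSO, namely Rrm2b, the other small subunit of ribonucleotide reductase, at 0.45 ± 0.15, Tk2, mitochondrial thymidine kinase, at 0.45 ± 0.15, Dtymk, thymidylate kinase, at 0.43 ± 0.12 and Umps, of pyrimidine synthesis, at 0.40 ± 0.12 (SE). In this list 3 fell with both drugs in the wild type, including Dtymk, by 0.64 (limma adjusted p = 0.00129). In the knockout 3 fell with Topo, including Umps, by 0.59, and Ctps, which makes CTP, by 0.59, and 8 fell with both drugs. Neither list had a member called with Etopo in either genotype. Limma gave 0 and 12 of the further factors an unadjusted p under 0.05 in wild type and knockout. The same held for 0 and 4 of the further enzymes and for 1097 and 707 of all 19752 genes.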

How the data were processed

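Total RNA of sorted MECs was measured on 22 arrays in 8 groups. The deposited values are probe intensity values, linear in scale. Per the submitters' processing notes, Affymetrix Power Tools and RMA were used, with no version named. Log2 was taken and no other normalization was applied. The small number of arrays per group limits the precision, and other limits on it were not compared. Of 24922 probes, 21425 had 1 gene symbol in the platform annotation, 1399 had several and 2098 none. The probe of highest mean was kept per symbol, which left 19752 genes; 2 members, Tk1 and Pcna, had 2 probes.

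Groups came from the sample titles. One model with a mean per group was fitted over all arrays with limma 3.58.1 in R 4.3.3 (data.table, version 1.17.8; 14 residual and 7.22 prior degrees of freedom), with 13 comparisons, and each comparison's p-values were adjusted over all genes (Benjamini-Hochberg). Thresholds and intervals are an adjusted p under 0.05 and 95%. The procedure was run on simulated data with independent errors, of the same spread on every array. The run checked that planted changes were recovered on average, and it does not cover arrays of unequal quality. Motifs were counted with Python 3.11.15. Named were all called members (the 8 with the largest change where more were called) and, in each role, the member with the largest change, the latter for the drug comparisons with DMSO and for the genotypes under DMSO only; Pola2, Tk1, Fen1, Rpa2, Mcm5, Rrm1, Tyms and others beyond the rule were named after their values were seen. Members, gene lists and tests were chosen with earlier results of these data known. The alternatives were quantile normalization, leaving out the dimmest genes, the replicate number as a block, age, array weights, only the compared groups, and leaving out arrays.

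Whether replicate numbers pair arrays was not established. Of 71 same-numbered pairs of arrays in different groups, 25 had deviations from their group means that correlated above 0.1. The correlations ran from -0.56 to 0.59, with a median of -0.05, against a median of 0.00 for pairs of different number.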

Additional observations from a re-analysis of the deposited data

How the results depend on the processing

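The median change over the members moved by less than the members' median standard error under every alternative run, and it kept its sign except for Etopo in the wild type, where -0.03 became 0.00 with quantile normalization, 0.01 without the arrays high in thymocyte transcripts, 0.06 without those labelled male and -0.07 to 0.01 with 1 array left out. Counts of called members often moved. They are given without the share of all genes called under the same alternative, so they cannot be set against it. Both alternatives that left out the knockout arrays of narrowest range (KO EtopoTopo 1 and KO Topo 1) or the arrays labelled male were chosen after seeing the data. For EtopoTopo against DMSO in the wild type (7 called) the count was 3 with quantile normalization, 0 with age, 0 without the arrays of conflicting labels, 2 without the arrays high in thymocyte transcripts and 0 without those labelled male, and 1 to 6 with 1 array left out. For Topo in the knockout (6) it was 2 without the thymocyte-high arrays, 15 with array weights, 0 with only the compared groups in the fit, 2 without the narrow-range arrays, 3 without those labelled male and 0 to 9 with 1 array left out. For EtopoTopo in the knockout (21) it was 0 with age, array weights or only the compared groups, 1 without the narrow-range arrays and 0 to 20 with 1 array left out. For knockout against wild type under DMSO (3) it was 9 with array weights, 1 with only the compared groups and 1 to 4 with 1 array left out. For the same comparison with both drugs (1) it was 3 with quantile normalization, 2 without the dimmest genes, 0 with array weights or only the compared groups and 0 to 6 with 1 array left out. Where 0 members were called, array weights gave 5 for Topo in the wild type, 11 for Etopo in the knockout, 5 for EtopoTopo against Topo, 3 for the Etopo interaction and 1 for the Topo interaction. EtopoTopo against Topo gave 1 without the thymocyte-high arrays, with only the compared groups, or without the narrow-range arrays, which also gave 1 for Topo in the wild type. The EtopoTopo interaction gave 0 to 2 with 1 array left out. The cause of these shifts was not tested. Array weights ran from 0.18 to 3.49.

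With the replicate number as a block, 2 members were called for knockout against wild type with both drugs, and no other count moved by over 1.5 times. Since it was not established that the numbers pair the arrays, the block is given only as an alternative.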

Other observations

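Genes of mitosis were lower in the same drug comparisons, with larger median changes. Over all genes, limma called 1.38% down with Topo and 7.28% with both drugs in the wild type, and 0.78% and 11.7% in the knockout. With both drugs in the wild type, 18 of 19 mitosis genes fell in limma, and their median was -0.84, against -0.27 for the replication members. With Topo in the wild type 6 fell, with the median -0.68, although no replication member was called there. Their array means were 7.84, 8.20 and 8.14 with Topo, below all DMSO arrays at 8.73, 8.59 and 8.66, whereas the replication members overlapped. With Etopo the median was -0.12 in the wild type and -0.76 in the knockout. In that knockout comparison all 19 lay below DMSO without overlap, against 12.8% of all genes. Limma called 0 of them and 0% of all genes, and gave 19 of them and 707 of all 19752 genes an unadjusted p under 0.05. In the knockout 12 fell with Topo and 13 with both drugs.

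Of 25 regulators of the G1/S transition, limma called 1 up and 2 down in the knockout under DMSO. Over all genes it called 7.4% up and 12% down. In the wild type 2 were called down with Topo, and 4 down and 1 up with both drugs. Over all genes these shares were 1.38%, 7.28% and 3.6%. In the knockout 2 were called down with Topo and 6 with both drugs, against 0.78% and 11.7% of all genes. Only some of the called genes are named here. E2f7, a repressor of E2F targets, was lower in the knockout than in the wild type under DMSO by 0.79 ± 0.11 (SE, limma adjusted p = 1.88e-05). In the wild type E2f7 fell with Topo by 0.49 and with both drugs by 0.70. In the knockout, E2f1 fell with Topo by 0.64 and Ccna2, cyclin A2, fell by 1.17 (limma adjusted p = 0.0287). Tfdp1, the partner of E2F proteins on DNA, was higher in the knockout under DMSO by 0.40 and with both drugs by 0.59. With both drugs limma called 1 of the 25 higher and 2 lower in the knockout, against 4.32% and 6.12% of all genes. Within the wild type, Tfdp1 changed by -0.43 with Topo (limma adjusted p = 0.0378).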
